A study of Oryctolagus cuniculus with 16 samples.

Results

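Wnt and Notch are signaling pathways between neighboring cells, and both were followed here in the wall of the rabbit basilar artery (BA). The genes were taken by name from the deposited table: secreted Wnt ligands and norrin (NDP), their Frizzled and LRP receptors, the secreted SFRP and DKK inhibitors, the intracellular Axin and TCF/LEF genes, and the Notch receptors, Jagged and Delta-like ligands and HES and HEY repressors. The names matched 51 of 13788 gene symbols, and 46 of these had a count in at least 1 library, against 11925 of all symbols. Of the 46, 35 were Wnt genes and 11 were Notch genes. The other 5 symbols (WNT10B, WNT7A, WNT3, DKK4 and HES2) had no count in any library. Further genes of both pathways, such as NOTCH1, JAG2 and HEY2, were not analysed here.

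In the canonical Wnt pathway, a ligand brings a Frizzled receptor and the co-receptor LRP5 or LRP6 together, which keeps beta-catenin from being degraded and lets it act with TCF/LEF factors in the nucleus. Secreted inhibitors of the DKK family bind the LRP co-receptors, and those of the SFRP family bind the ligands. In the Notch pathway, a Jagged or Delta-like ligand on one cell opens a Notch receptor on its neighbor to cleavage, and the released part of the receptor switches on HES and HEY genes. In arteries, DLL4 and NOTCH4 are known as genes of endothelial cells (ECs), and NOTCH3 is known as the Notch receptor of vascular smooth muscle cells (VSMCs).

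The 4 animals were female New Zealand white rabbits, of which 3 and 4 were sham-operated and 5 and 6 underwent ligation of both common carotid arteries, a procedure that raises flow in the BA. After 24 h, strips of intima and of media were laser-microdissected from the straight BA and from the basilar terminus (BT), and strips from several sections were pooled into 1 library per rabbit, location and layer. This gave 16 libraries in 8 groups of 2 rabbits (sham or ligated, BA or BT, intima or media). Values below are CPM (counts scaled to a common library size by TMM), without correction for gene length, and levels are compared for each gene between libraries. Between genes, mean CPM served only to choose and order those named in each role. Some genes are also given as a ratio to the endothelial marker PECAM1.

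Named genes took 5211886 to 17686105 counts per intimal library and 2154863 to 11219236 per medial library. The layers were checked against marker genes. The summed CPM of the 10 endothelial markers was 1233 to 5929 in the intima and 461 to 1666 in the media. Of this, ESAM, which did not separate the layers, was at 169 to 707 CPM in the intima and 367 to 702 CPM in the media. PECAM1 was at 179 to 812 CPM in the intima and 2.92 to 148 CPM in the media. KDR, a defining endothelial receptor, reached at most 15.6 CPM in any intimal library. The 6 VSMC markers with a count summed to 11300 to 76841 CPM in the intima and 70043 to 120495 CPM in the media, so intimal strips also held muscle RNA. The 9 leptomeningeal and fibroblast markers with a count differed between layers and with ligation and are given with those results, and the brain parenchymal markers stayed at or below 31.9 CPM in all. The intimal library of the BT of sham rabbit 3 stood apart, with 138 CPM of RSPO3, which encodes a secreted enhancer of Wnt signaling, against 14.2 CPM or less in the 15 others. It also held 12599 CPM of the proteoglycan gene OGN, though other sham libraries came close, such as the BT media of rabbit 4 at 11800 CPM. Among the members, WNT16, singled out after its values were seen, was at 41.2 CPM in the BT intima of sham rabbit 3 and at 2.74 CPM or less elsewhere.

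Of the 15 Wnt ligands, 3 had a count in every library (WNT5A, WNT11 and WNT5B, the last named after its values were seen). WNT5A, a ligand of mostly non-canonical Wnt signaling, was found at 1.81 to 58.7 CPM, and WNT11, a related non-canonical ligand, at 0.106 to 38.1 CPM. NDP, whose product is no Wnt protein but activates the receptor FZD4, ranged from 0 to 41.5 CPM. Of the 9 receptors, FZD6 reached 286 CPM, LRP6 lay between 6.81 and 50.5 CPM, and FZD1 between 5.62 and 74.4 CPM. Of the 6 secreted inhibitors, DKK2 ranged from 3.86 to 984 CPM, SFRP2 from 2.24 to 102 CPM and SFRP4 from 0 to 38.3 CPM. Among the 5 Axin and TCF/LEF genes, TCF7L2 was at 42.5 to 229.8 CPM, LEF1 at 13.0 to 137 CPM and TCF7L1 at 2.68 to 16.1 CPM. AXIN2, itself a target of canonical Wnt signaling and named here after its values were seen, did not exceed 2.32 CPM. In all, 12 Wnt genes had a count in every library, and 8 were too low to be tested in any comparison, with at most 1.87 CPM in a library.

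Among the 3 Notch receptors, NOTCH3 was at 10.9 to 805 CPM and NOTCH2 at 3.62 to 57.1 CPM, whereas NOTCH4 ranged from 0 to 33.7 CPM. The ligand JAG1 was found in all libraries at 144 to 616 CPM, DLL4 at 0 to 113 CPM and DLL1 at 0 to 28.7 CPM. Of the repressors, HES1 lay between 43.0 and 196 CPM, HEYL between 16.2 and 192 CPM and HEY1 between 0 and 18.5 CPM. JAG1, NOTCH2, NOTCH3, HES1 and HEYL had counts in every library, and DLL3 and HES7, at 0.701 CPM or less, were tested in no comparison.

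**Figure D1:**
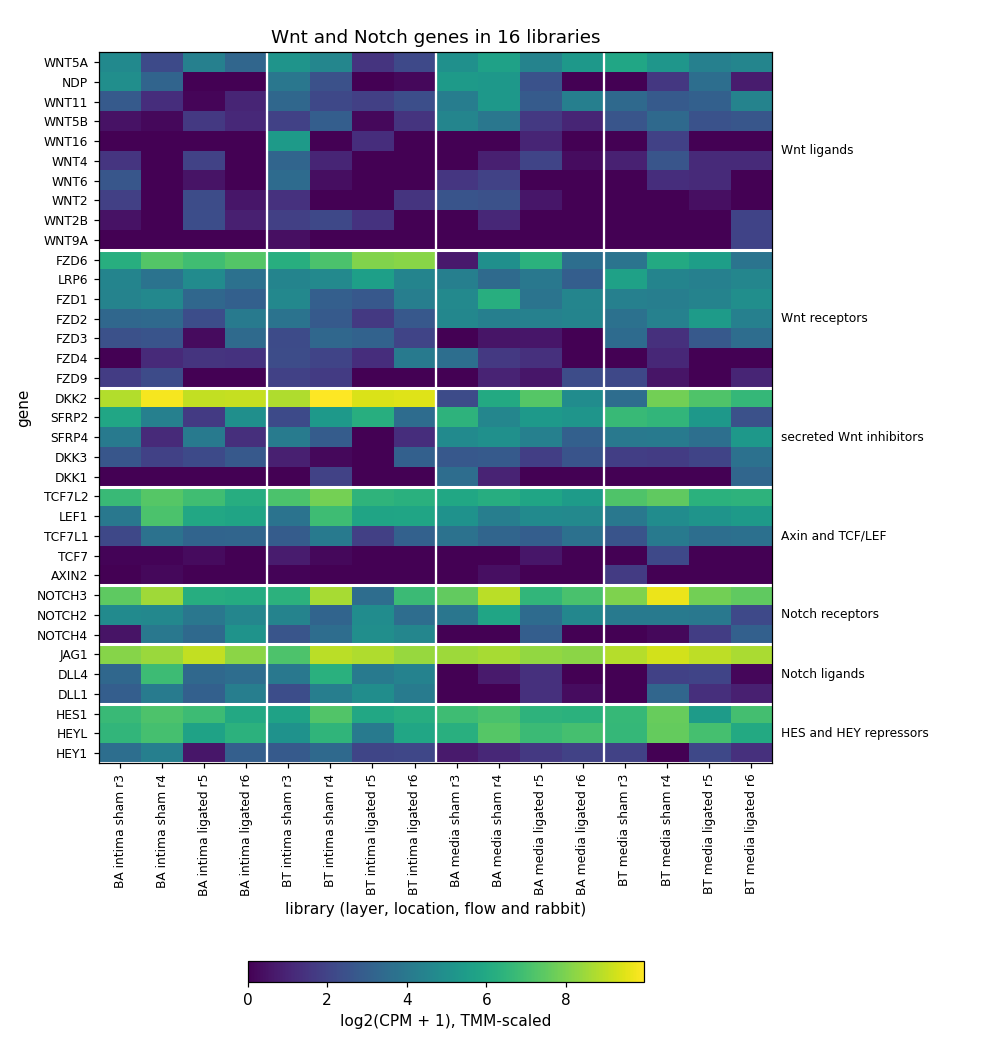
Levels of the 27 Wnt and 9 Notch genes tested in at least 1 comparison, as log2(CPM + 1), with 1 row per gene, ordered by role and mean level, and 1 column per library, named by location, layer, flow and rabbit (r3 to r6). DKK2 is brighter in each of the 8 intimal columns on the left than in any of the 8 medial columns on the right, FZD6 is brighter in the intima of each rabbit with some overlap between rabbits, and JAG1 is bright in all 16.

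The first comparison asked which members differed between intima and media of the same vessel, with each rabbit giving 1 pair of layers at each location. DKK2, FZD6 and DLL4 were higher in the intima. DKK2 passed the threshold of q = 0.05 at both locations, and FZD6 and DLL4 passed it at the BT. No member was called higher in the media at either location. These calls came from edgeR's quasi-likelihood test with rabbit as a block, adjusted over all genes tested.

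DKK2 had no overlap between layers. In the BA intima it was at 444 and 904 CPM in the sham rabbits and at 526 and 536 CPM in the ligated rabbits, and in the BA media it was at 3.86, 64.0, 159 and 27.3 CPM in rabbits 3, 4, 5 and 6. In the BT it was at 429.8, 984, 659 and 699.6 CPM in the intima and at 10.7, 223, 147 and 98.5 CPM in the media of the same rabbits. All 8 intimal libraries therefore lay above all 8 medial libraries, which 0.576% of genes tested at BA or BT did in this direction. Mean levels were 648 ± 206 CPM in the intima and 91.7 ± 79.4 CPM in the media (SD, n = 8 libraries of 4 rabbits). The log2 fold change, intima over media, was 4.11 (SE 0.72, edgeR q = 0.0438) for the BA and 3.005 (SE 0.53, edgeR q = 0.0318) for the BT. At the BA, 1 of 23 Wnt genes tested was thus called, against 0.620% of all 9514 genes (0.483% higher and 0.137% lower in the intima), and at the BT 2 of 26, against 2.10% of 9624 genes (1.25% higher and 0.852% lower). At an unadjusted p below 0.05 there were 4 Wnt and 3 Notch genes at the BA, where 11.8% of all genes passed, and 5 and 5 at the BT, where 13.8% did. DESeq2 called 7 members at the BA and 10 at the BT, against 8.11% and 12.7% of all genes with an adjusted p.

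FZD6, a Frizzled receptor known for its part in planar cell polarity, was the second Wnt gene called. At the BT it was at 73.5, 139, 262 and 286 CPM in the intima of rabbits 3, 4, 5 and 6 and at 13.4, 65.3, 46.7 and 13.1 CPM in their media, a log2 fold change of 2.61 (SE 0.52, edgeR q = 0.0448). At the BA it was at 74.8, 155, 119 and 153 CPM in the intima and at 0.660, 29.9, 81.2 and 11.01 CPM in the media. The intima was higher in all 4 pairs there too, with a log2 fold change of 3.16 (SE 0.86, edgeR q = 0.162).

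Of the Notch genes, the ligand DLL4 was called at the BT, 1 of 9 tested. In the BT it was at 14.6, 78.3, 15.9 and 20.3 CPM in the intima and at 0, 2.74, 3.12 and 0.117 CPM in the media of rabbits 3, 4, 5 and 6, with a log2 fold change of 5.05 (SE 1.03, edgeR q = 0.0479). In the BA it was at 8.90, 113, 9.27 and 10.8 CPM in the intima and at 0, 0.654, 1.58 and 0 CPM in the media, with a log2 fold change of 6.25 (SE 1.15) that just missed the threshold (edgeR q = 0.0553). Sham rabbit 4 held the highest DLL4 of both locations, and as for DKK2 no medial library reached the lowest intimal one.

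The ligand DLL1 and the receptor NOTCH4 had the same order in every pair without passing the test. DLL1 was at 4.13 to 28.7 CPM in the intima and at 0 to 8.71 CPM in the media, with log2 fold changes of 5.99 (SE 1.57, edgeR q = 0.149) at the BA and 3.65 (SE 1.05, edgeR q = 0.132) at the BT. NOTCH4 was at 0.451 to 33.7 CPM in the intima and at 0 to 7.24 CPM in the media, where 4 of 8 libraries held no count. Its log2 fold changes were 5.66 (SE 1.96, edgeR q = 0.287) at the BA and 3.94 (SE 1.08, edgeR q = 0.118) at the BT. In all, 5 of the 36 members tested between layers were higher in the intima in 8 of 8 pairs, and 4.87% of all genes tested were.

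The opposite order in 8 of 8 pairs was found for 3 members, against 3.56% of all genes. WNT11 was at 0.106 to 8.999 CPM in the intima and at 5.97 to 38.1 CPM in the media, and its log2 fold change was -3.91 (SE 0.92, edgeR q = 0.116) at the BA and -1.13 (SE 0.79, edgeR q = 0.615) at the BT. WNT5A had a median of 13.9 CPM in the intima and 33.7 CPM in the media, with log2 fold changes of -1.53 (SE 0.69, edgeR q = 0.428) and -1.82 (SE 0.61, edgeR q = 0.202). NOTCH3 had medians of 96.5 and 207 CPM, with log2 fold changes of -0.45 (SE 0.24, edgeR q = 0.520) and -1.80 (SE 0.57, edgeR q = 0.168). The ranges of the layers overlapped for each of these genes. Markers of other medial cells moved the same way. The 9 leptomeningeal and fibroblast markers had a median log2 fold change, intima over media, of -2.04 at the BA and -2.07 at the BT, with COL1A2 called lower at the BT, and the 6 smooth muscle markers had medians of -0.69 and -1.99, with 5 called lower at the BT. Their part in the values of WNT11, WNT5A and NOTCH3 was not tested.

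**Figure D2:**
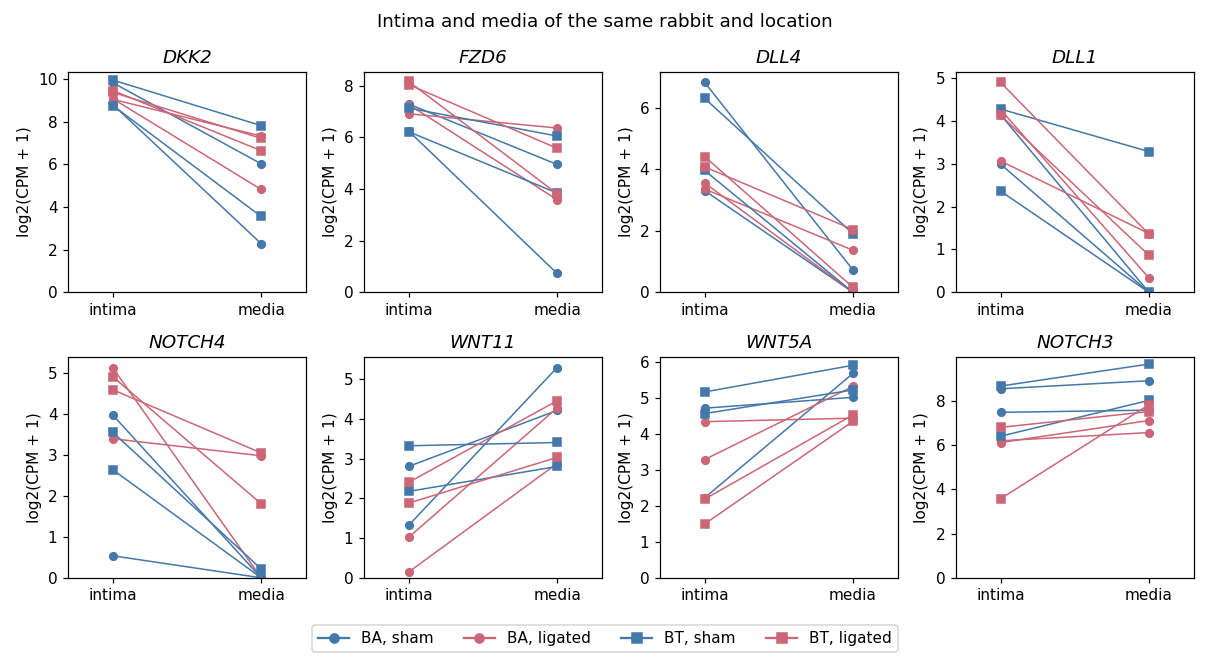
Levels as log2(CPM + 1) of the 5 members that were higher in the intima and the 3 that were higher in the media in 8 of 8 pairs, with lines joining the 2 layers of 1 rabbit at 1 location, circles for the BA, squares for the BT, blue for sham and red for ligated rabbits. Every line falls for DKK2, FZD6, DLL4, DLL1 and NOTCH4, and every line rises for WNT11, WNT5A and NOTCH3.

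The other members did not separate the layers. JAG1 was at 144 to 516 CPM in the intima and 296 to 616 CPM in the media, and HES1 at 52.2 to 152 CPM and 43.0 to 196 CPM. HEYL, a HEY repressor known downstream of NOTCH3 in VSMCs, was higher in the media in 7 of 8 pairs, with a log2 fold change of -1.43 (SE 0.45, edgeR q = 0.172) at the BT. TCF7L2 had its higher value on the intimal side in 6 of 8 pairs, and its log2 fold change was 0.96 (SE 0.26, edgeR q = 0.162) at the BA. The median log2 fold change of the Wnt genes tested was -0.37 at the BA and -0.58 at the BT, beside 0.05 and 0.08 over all genes, and that of the Notch genes was 0.04 and 0.50. At the BA, 7 Wnt genes were higher and 16 lower in the intima, which became 10 and 13 with library-size scaling alone, while 47.5% of all genes there were lower. Of the Notch genes at the BA, 7 were higher and 2 lower, which became 4 and 5 with RLE scaling. At the BT, 8 Wnt genes were higher and 18 lower, and 5 Notch genes were higher and 4 lower, where 46.2% of all genes were lower.

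The endothelial marker PECAM1 moved with these differences, and the level of endothelial RNA in the media varied strongly between libraries, from 2.92 CPM of PECAM1 in the BA of sham rabbit 3 to 148 CPM in the BA of ligated rabbit 5. The medial libraries with the least PECAM1 were also those with the least DKK2 (3.86 and 10.7 CPM), and all medial libraries above 100 CPM of PECAM1 held 147 CPM or more of DKK2. Taken relative to PECAM1, DKK2 was at 0.812 to 2.48 in the intima and at 1.07 to 4.73 in the media, so this ratio did not separate the layers. The ratio of FZD6 to PECAM1 was 0.233 to 0.446 in the intima and 0.223 to 2.88 in the media. For DLL4 the ratio was 0.0164 to 0.254 in the intima and 0 to 0.0234 in the media. The part of endothelial RNA in the medial levels was not tested, and in such bulk samples fewer cells of a type and less RNA per cell cannot be told apart. Within the intima, the ratio of DKK2 to PECAM1 was 1.98 to 2.48 in the 4 sham libraries and 0.812 to 1.18 in the 4 ligated libraries. For DLL4 the ratio was 0.0498 to 0.254 and 0.0164 to 0.0317, and for FZD6, DLL1 and NOTCH4 the flow groups overlapped. DKK2 itself was at 429.8 to 984 CPM in sham and 526 to 699.6 CPM in ligated intima. PECAM1 was at 179 to 497 CPM and 445 to 812 CPM. The ratio depends on the marker taken, since VWF was at 451 to 2574 CPM in sham and 241 to 1059 CPM in ligated intima.

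**Figure D3:**
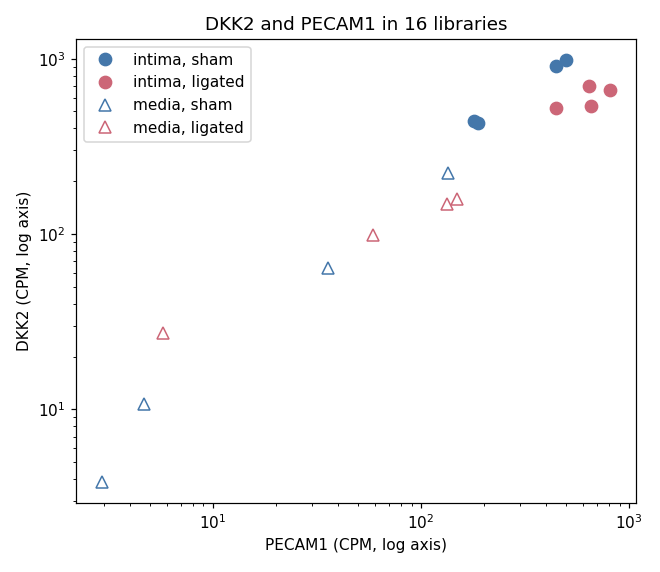
DKK2 against the endothelial marker PECAM1, both in CPM on log axes, with 1 point for each of the 16 libraries, filled circles for intima, open triangles for media, blue for sham and red for ligated rabbits. The 8 medial points climb with PECAM1 from 3.86 to 223 CPM of DKK2, and the 8 intimal points lie at 429.8 CPM or more.

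The layer calls depended on single rabbits, while each fold change kept its direction. With each rabbit left out in turn, the log2 fold change was 3.27 to 4.86 for DKK2 at the BA, and at the BT 2.37 to 3.34 for DKK2, 2.03 to 3.12 for FZD6 and 4.40 to 6.08 for DLL4. Without rabbit 4 or without rabbit 6, DKK2 no longer passed at the BA (edgeR q = 0.225 and 0.274). Without rabbit 4, 5 or 6 it no longer passed at the BT (edgeR q = 0.127, 0.0623 and 0.125). FZD6 at the BT failed without the same 3 rabbits (edgeR q = 0.112, 0.120 and 0.121), and DLL4 at the BT failed without rabbit 4 or 6 (edgeR q = 0.282 and 0.160). With no rabbit block, none of the calls was kept, with edgeR q = 0.0984 for DKK2 at the BA and 0.109, 0.0752 and 0.0941 for DKK2, FZD6 and DLL4 at the BT, and each fold change was again positive. Over all alternatives, DESeq2 included, the adjusted p ran from 0.000145 to 0.274 for DKK2 at the BA, and for the BT from 5.92e-08 to 0.127 for DKK2, from 1.36e-05 to 0.121 for FZD6 and from 3.08e-06 to 0.282 for DLL4.

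The second question was whether members changed with ligation in each of the 4 tissues, with 2 ligated against 2 sham rabbits. No member passed q = 0.05 in any tissue with edgeR, whereas edgeR called 0% of all genes in either intima, 0.807% for BA media and 2.35% for BT media. The smallest q-value of a member was 0.269 for BA intima (NDP), 0.281 for BT intima (WNT5A), 0.205 for BA media (WNT5B) and 0.151 for BT media (NOTCH3). WNT5B was at 22.2 and 14.4 CPM in sham and 2.11 and 1.05 CPM in ligated BA media, a log2 fold change of -3.55 (SE 1.08). In the BA intima its order was the opposite, at 0.394 and 0.149 CPM in sham and 2.13 and 1.20 CPM in ligated rabbits. At an unadjusted p below 0.05 there were 3 members for BA intima (5.95% of all genes), 7 for BT intima (11.6%), 4 for BA media (13.6%) and 5 for BT media (16.0%). DESeq2 called 2 members in each tissue, all lower after ligation: NDP and NOTCH3 in both BA layers, NDP and WNT5A in BT intima, and SFRP2 and NOTCH3 in BT media. Of members with a DESeq2 adjusted p these were 2 of 24 (BA intima), 2 of 20 (BA media), 2 of 31 (BT intima) and 2 of 25 (BT media), against 1.54%, 7.34%, 7.02% and 7.83% of all genes with one.

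NOTCH3 was lower after ligation in the libraries of 3 tissues. In the BA intima it was at 177 and 370.4 CPM in the sham rabbits and at 71.9 and 67.9 CPM after ligation, a log2 fold change of -1.96 (SE 0.51, edgeR q = 0.634). The BA media held 189 and 477 CPM in sham and 93.4 and 137 CPM in ligated rabbits, a log2 fold change of -1.51 (SE 0.48, edgeR q = 0.222). In the BT media it was at 258 and 805 CPM in sham and at 225 and 181 CPM in ligated rabbits, a log2 fold change of -1.38 (SE 0.45, edgeR q = 0.151). In each of these tissues both ligated rabbits were below both sham rabbits, and sham rabbit 4 was the highest. Without rabbit 4 the log2 fold change was -1.36 in BA intima, -0.71 in BA media and -0.33 in BT media (edgeR q = 0.715, 0.377 and 0.684), so the medial differences rested largely on this rabbit. Over all alternatives, DESeq2 included, the adjusted p was 0.0224 to 0.889, 0.00537 to 0.824 and 2.59e-05 to 0.684. The groups overlapped in the BT intima, at 83.1 and 404 CPM in sham and 10.9 and 110.01 CPM in ligated rabbits, with a log2 fold change of -2.02 (SE 1.15, edgeR q = 0.505), which was -0.51 without rabbit 4. The 2 HES and HEY repressors that were detected in every library, HES1 and HEYL, had q-values of 0.472 or more in all 4 tissues.

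NDP, which the study had listed among its intimal genes from these same libraries, so that its direction is not independent evidence, was nearly absent from the ligated intima. In the BA intima it was at 29.1 and 8.15 CPM in the sham rabbits and had no count in either ligated rabbit, at least 44.8-fold lower when both ligated libraries are set to 3 counts (edgeR q = 0.269). In the BT intima it was at 14.4 and 4.54 CPM in sham rabbits, with 0 and 2 counts in the ligated rabbits (edgeR q = 0.323). The BA media held 41.5 and 38.6 CPM in sham and 4.75 and 0 CPM in ligated rabbits, a log2 fold change of -4.24 (SE 1.33, edgeR q = 0.217). The order was different in the BT media, at 0 and 2.10 CPM in sham and 11.2 and 0.701 CPM in ligated rabbits, with a log2 fold change of 2.41 (SE 2.03, edgeR q = 0.598).

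TCF7L2, a TCF/LEF factor, was the third member with both ligated rabbits below both sham rabbits in 3 tissues. It was at 137 and 229.8 CPM in sham and at 86.8 and 77.7 CPM in ligated BT intima, with a log2 fold change of -1.15 (SE 0.44, edgeR q = 0.400). In the BT media it was at 148 and 185 CPM in sham and at 81.7 and 84.8 CPM in ligated rabbits, with a log2 fold change of -0.99 (SE 0.36, edgeR q = 0.197). In the BA media the gap was small, with 59.1 and 73.1 CPM against 55.9 and 42.5 CPM, a log2 fold change of -0.41 (SE 0.45, edgeR q = 0.719). The BA intima overlapped, at 105 and 161 CPM in sham and 117 and 73.1 CPM in ligated rabbits. Of the 24 members tested in all 4 tissues, these 3 were lower without overlap in at least 3, and 11.4% of 7930 genes were. All 4 tissues came from the same 4 rabbits, so they are not independent of each other.

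**Figure D4:**
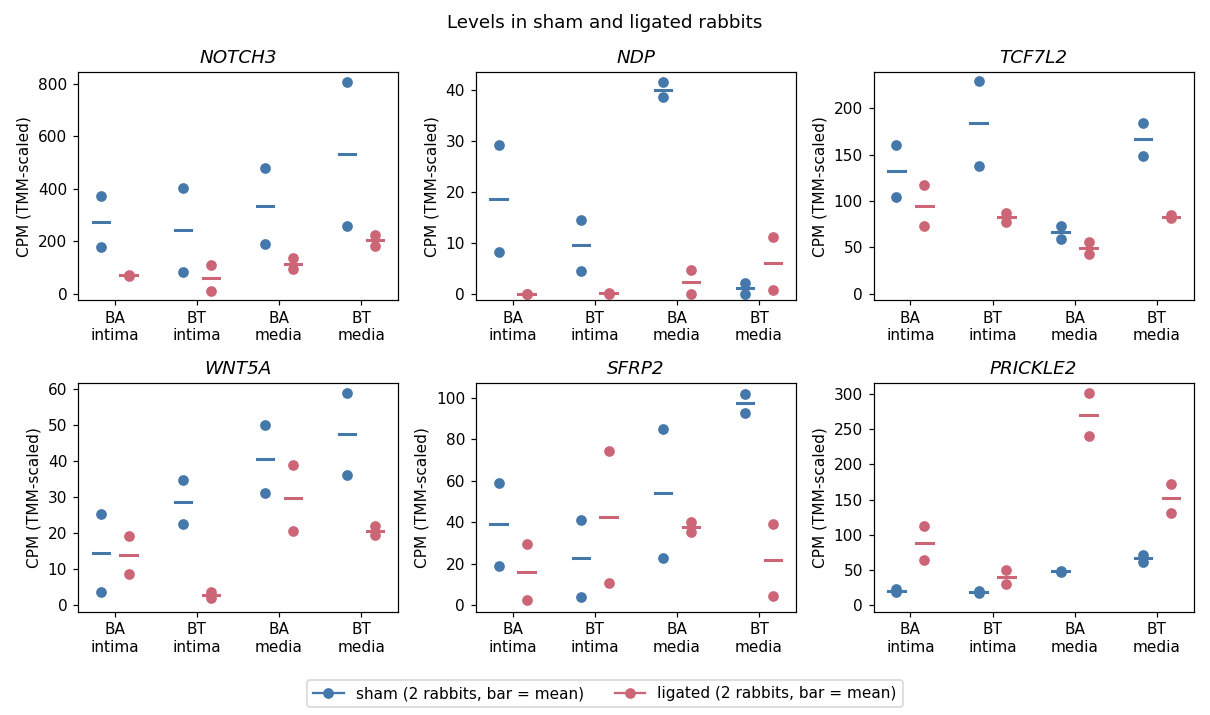
CPM (TMM-scaled) in sham (blue) and ligated (red) rabbits of 5 members and of PRICKLE2, in each of the 4 tissues, with 1 point per rabbit and a bar at the mean of 2 rabbits. NOTCH3 and NDP lie lower in both ligated rabbits in 3 tissues, and PRICKLE2 lies higher in both ligated rabbits in all 4.

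Other members separated the flow groups in 1 or 2 tissues. WNT5A was at 34.7 and 22.5 CPM in the sham BT intima and at 1.81 and 3.54 CPM in the ligated BT intima, with a log2 fold change of -3.42 (SE 0.86, edgeR q = 0.281). In the BT media it was at 58.7 and 36.1 CPM in sham and at 19.3 and 22.0 CPM in ligated rabbits, with a log2 fold change of -1.18 (SE 0.57, edgeR q = 0.336), and in both BA tissues the groups overlapped. SFRP2 was at 102 and 92.4 CPM in the sham BT media and at 39.0 and 4.56 CPM after ligation, with a log2 fold change of -2.18 (SE 0.75, edgeR q = 0.175). SFRP4 was at 16.8 and 6.44 CPM in the sham BT intima and at 0 and 1.48 CPM after ligation, with a log2 fold change of -3.97 (SE 1.99, edgeR q = 0.488).

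Some values were higher after ligation. In the BT intima FZD6 was at 73.5 and 139 CPM in sham and at 262 and 286 CPM in ligated rabbits, with a log2 fold change of 1.37 (SE 0.46, edgeR q = 0.346). NOTCH4 was at 5.21 and 10.7 CPM in sham and at 28.9 and 23.0 CPM in ligated BT intima, with a log2 fold change of 1.72 (SE 0.78, edgeR q = 0.455). PECAM1 was higher too, at 187 and 497 CPM in the sham and 812 and 641 CPM in the ligated BT intima. Other endothelial markers differed, such as VWF at 451 and 2574 CPM in sham and 241 and 673 CPM in ligated rabbits. Of the 10 markers, 3 were higher and 1 lower at an unadjusted p below 0.05 (edgeR). Their sums overlapped, at 1233 and 5533 CPM in sham and 2926 and 3704 CPM in ligated BT intima. The part of endothelial RNA in these values was not tested. For DLL4 in the BA intima, 8.90 and 113 CPM in sham stood against 9.27 and 10.8 CPM in ligated rabbits, with a log2 fold change of -2.58 (SE 1.03, edgeR q = 0.807). That value rested on sham rabbit 4, since without this rabbit the log2 fold change was 0.15. DKK2 differed little with ligation in the intima, with log2 fold changes of -0.33 (SE 0.48, edgeR q = 0.976) at the BA and -0.05 (SE 0.49, edgeR q = 0.982) at the BT. Without rabbit 4 these became 0.24 and 0.63.

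Counted over all members tested, the Wnt genes of the BT intima had both ligated rabbits below both sham rabbits in 10 of 23 and above in 1, against 25.6% and 20.4% of all genes. In the BA media the same counts were 10 and 0 of 21, against 26.0% and 21.0%. They were 4 and 3 of 22 in the BA intima, against 20.0% and 15.4%, and 3 and 3 of 24 in the BT media, against 23.1% and 25.4%. Genes were tested if at least 1 group had a mean above 1 CPM, so some passed through the sham group alone. In the BT intima these included WNT6, WNT4, FZD9, NDP, SFRP4 and WNT2B, with ligated means of 0 to 0.864 CPM. In the BA media they included FZD4, WNT2, WNT6 and DKK1, at 0 to 0.791 CPM. The counts and Wnt medians depend partly on this filter and are no evidence of a shift on their own. The median log2 fold change of the Wnt genes was -1.15 in BT intima and -0.51 in BA media, beside -0.13 and -0.15 over all genes, and it was 0.04 in BA intima and 0.09 in BT media, beside -0.10 and 0.03. The medians were the same with genes at no count in 1 group set to their bound. Each bound lay on the same side of the median as the fitted value, so this does not test the medians. Of the Notch genes, both ligated rabbits lay below both sham rabbits in 4 of 9 for BA intima, 1 of 9 for BT intima, 3 of 7 for BA media and 2 of 9 for BT media. Their medians were -0.50, -0.60, -0.25 and -0.59.

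Markers of other cells in the wall moved with ligation as well. The 9 leptomeningeal and fibroblast markers with a count summed to 13948 to 22168 CPM in the 4 sham and 5258 to 6444 CPM in the 4 ligated medial libraries. In the intima they summed to 3840 to 17552 CPM in sham and 598 to 4239 CPM in ligated libraries. Macrophage markers summed to 77.1 to 1090 CPM in sham and 56.7 to 203 CPM in ligated intima. In the ligated BT intima most of this was CD14, at 121 and 54.7 CPM, against 57.0 and 58.9 CPM in sham. The macrophage list there had a median log2 fold change of -8.70, from genes at or near no count after ligation. Of 7 tested, 5 were lower at an unadjusted p below 0.05 (edgeR). In the BT media, 2 of 6 smooth muscle markers, MYH11 and LMOD1, were called lower after ligation, and the list had a median log2 fold change of -1.05, beside 0.03 over all genes. At an unadjusted p below 0.05 (edgeR), 3 of these markers were lower and 1 was higher. MYH11, the smooth muscle myosin heavy chain, was at 2127 and 1438 CPM in sham and 445 and 641 CPM in ligated BT media. DES, on the same list, was at 656 and 1180 CPM in sham and 1158 and 2609 CPM in ligated BT media. The median of this list was -0.25 in BA media, -0.58 in BA intima and -0.43 in BT intima, with none called there by edgeR. The part of these markers in the lower values of WNT5A, SFRP2, SFRP4, NDP and NOTCH3 was not tested.

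**Figure D5:**
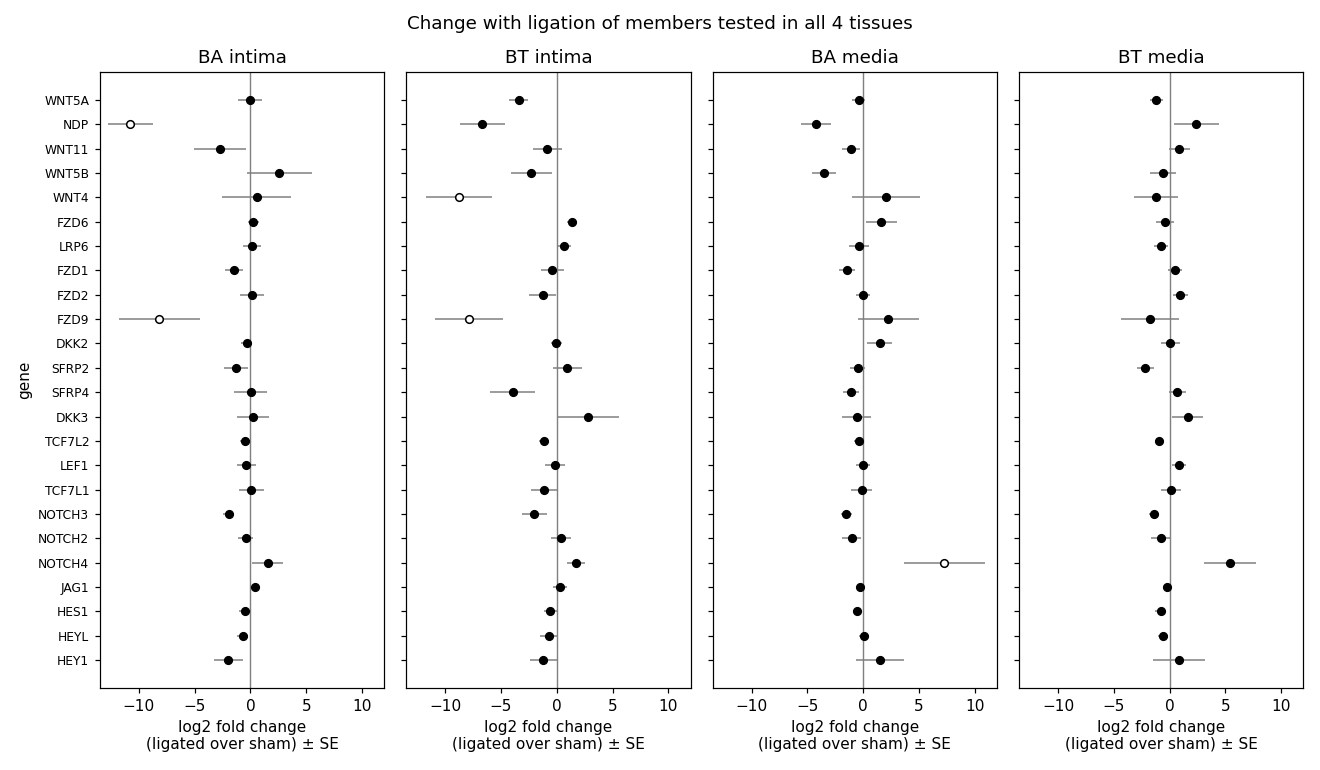
Log2 fold change, ligated over sham, ± SE (edgeR, 2 against 2 rabbits) of the 24 members tested in all 4 tissues, with 1 panel per tissue. Open circles mark genes with no count in 1 of the 2 groups, whose fitted value depends on the prior count. NOTCH3 lies at -1.96, -2.02, -1.51 and -1.38 from left to right, and NDP lies below 0 in 3 panels and at 2.41 in the BT media.

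The third comparison set the BT against the BA within each layer, in pairs from the same rabbit. No member passed with edgeR in either layer, where 0.0104% of all genes tested were called in the intima and 0.0320% in the media. DESeq2 called none either, against 0.541% and 0.698% of all genes with an adjusted p, and at an unadjusted p below 0.05 there were 2 members in the intima (3.65% of all genes) and 6 in the media (5.27%). In the media, 5 of 36 members were higher at the BT in all 4 rabbits, against 6.91% of all genes, and none was lower in all 4, against 6.36%.

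These were the co-receptor LRP6, the factor TCF7L2, the receptor NOTCH3, its ligand JAG1 and FZD3, the last named after its values were seen. TCF7L2 was at 59.1, 73.1, 55.9 and 42.5 CPM in the BA media and at 148, 185, 81.7 and 84.8 CPM in the BT media of rabbits 3, 4, 5 and 6, a log2 fold change of 1.05 (SE 0.28, edgeR q = 0.290). JAG1 was at 353, 395, 325 and 296 CPM in the BA media and at 453, 616, 489 and 407 CPM in the BT media, a log2 fold change of 0.50 (SE 0.21, edgeR q = 0.848). Both genes thus differed in the same direction in every rabbit, sham and ligated, by less than the test required. The log2 fold change of NOTCH3 was 0.71 (SE 0.23, edgeR q = 0.612) and that of LRP6 was 1.16 (SE 0.51, edgeR q = 0.875). FZD3 was at 0 to 0.527 CPM in the BA media and at 1.61 to 10.6 CPM in the BT media.

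DKK2 in the media was higher at the BT in 3 of 4 rabbits, with a log2 fold change of 1.26 (SE 0.34, edgeR q = 0.324), and lower in ligated rabbit 5. PECAM1 had the same order, at 4.65, 134, 133 and 58.8 CPM in the BT media against 2.92, 35.7, 148 and 5.77 CPM in the BA media. In the intima, WNT11 was the only member higher at the BT in all 4 rabbits (5.46% of all genes were), with 5.97, 1.49, 0.106 and 1.03 CPM at the BA and 8.999, 3.51, 2.68 and 4.28 CPM at the BT. HEYL was the only one lower in all 4 (5.83% of all genes were), with 92.6, 129, 52.2 and 83.5 CPM at the BA and 32.6, 90.5, 16.2 and 58.7 CPM at the BT. Its log2 fold change was -1.05 (SE 0.32, edgeR q = 1.00). The 6 smooth muscle markers moved the same way in this comparison, with a median of -1.16, beside 0.01 over all genes, and 3 of 6 lower at an unadjusted p below 0.05, and their part in the HEYL values was not tested.

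Whether the change with ligation differed between layers or between locations was tested as an interaction, with rabbit as a block. No member passed with edgeR in any of the 4 interactions, and 0% of all genes were called in 3 of them and 0.502% in that of location and flow in the media. At an unadjusted p below 0.05 there were 2 and 3 members for layer at BA and BT (2.44% and 4.84% of all genes), and 2 and 4 members for location in intima and media (3.44% and 9.07%). DESeq2 called 1 member (SFRP2, layer at the BT), against 0.131% and 1.35% of all genes with an adjusted p for layer and 0.768% and 5.89% for location, where in the media only 7 of 36 members had one. The nearest with edgeR was NDP in the media, where the log2 fold change with ligation was 7.44 greater at the BT than at the BA (SE 1.80, edgeR q = 0.0551). SFRP2 had the opposite sign there, at -2.62 (SE 0.84, edgeR q = 0.195), from the 102 and 92.4 CPM in sham and 39.0 and 4.56 CPM in ligated BT media and the 85.0, 22.6, 40.1 and 35.4 CPM of the BA media. Between the layers of the BT, the interaction of SFRP2 was 3.99 (SE 1.21, edgeR q = 0.966) in the fit with rabbit as a block. The separate fits of each layer gave changes with ligation of 0.95 in the intima and -2.18 in the media. The intimal values overlapped, at 3.72 and 41.1 CPM in sham and 74.4 and 10.5 CPM in ligated rabbits. The change of WNT5A in the intima differed between BT and BA by -3.89 (SE 1.41, edgeR q = 1.00).

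Further genes of both pathways were read from fixed lists of 53 Wnt genes, 38 with a count, and 37 Notch genes, 28 with a count. With ligation, 1 Wnt gene was called higher in BA media (of 35 tested, against 0.432% of all genes), 1 lower in BT media (of 33, against 1.18%) and none in the intima, and no Notch gene was called in any tissue. The gene called in the BA media was PRICKLE2, which encodes a protein of the planar cell polarity branch of Wnt signaling. It was at 46.8 and 49.1 CPM in sham and at 240.0 and 301 CPM in ligated BA media, a log2 fold change of 2.51 (SE 0.37, edgeR q = 0.0283).

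The other tissues had PRICKLE2 in the same order. In the BT media it was at 61.6 and 70.8 CPM in sham and 132 and 172 CPM in ligated rabbits, with a log2 fold change of 1.21 (SE 0.38, edgeR q = 0.133). The BA intima had 18.0 and 23.1 CPM in sham and 112 and 63.8 CPM in ligated rabbits, with a log2 fold change of 2.11 (SE 0.59, edgeR q = 0.696). In the BT intima it was at 17.3 and 19.9 CPM in sham and 29.7 and 50.2 CPM in ligated rabbits, with a log2 fold change of 1.10 (SE 0.57, edgeR q = 0.491). Both ligated rabbits were thus above both sham rabbits in all 4 tissues, as were 3.68% of the 7930 genes tested in all 4. The call in the BA media was lost without any 1 of the 4 rabbits (edgeR q = 0.144 to 0.509), with log2 fold changes of 2.32 to 2.67, and the adjusted p over all alternatives, DESeq2 included, was 1.64e-08 to 0.509.

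TNKS2, a tankyrase that marks Axin for degradation, fell in the BT media, from 123 and 76.8 CPM in sham to 22.1 and 17.4 CPM in ligated rabbits, a log2 fold change of -2.33 (SE 0.48, edgeR q = 0.0303). This call was lost without rabbit 5 or 6 (edgeR q = 0.0893 and 0.248), and over all alternatives, DESeq2 included, the adjusted p was 0.000303 to 0.248. In the other tissues TNKS2 had the same order without being called. It was at 77.2 and 50.4 CPM in sham and 17.6 and 40.0 CPM in ligated BA intima. The BT intima held 61.1 and 55.5 CPM against 48.4 and 34.9 CPM, and the BA media 86.9 and 28.0 CPM against 21.1 and 26.5 CPM. Of 7930 genes tested in all 4 tissues, 11.4% were lower without overlap in at least 3. RSPO3, also on the study's list from these libraries, was at 138 and 2.196 CPM in the sham and 1.21 and 0 CPM in the ligated BT intima, a log2 fold change of -6.83 (SE 2.26, edgeR q = 0.344). That value rested on sham rabbit 3, without which it was -1.81 (edgeR q = 0.902), and over all alternatives, DESeq2 included, the adjusted p was 0.00653 to 0.902.

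Between the layers of the BT, PRICKLE2 was lower in the intima and PSEN2 and ADAM10 were higher, 1 of 34 Wnt genes and 2 of 23 Notch genes tested, against 0.852% of all genes called lower and 1.25% called higher. The log2 fold change of PRICKLE2 was -1.89 (SE 0.28, edgeR q = 0.0211) at the BT and -1.44 (SE 0.29, edgeR q = 0.0727) at the BA. PSEN2 encodes a catalytic subunit of gamma-secretase and ADAM10 a protease, both of which cut Notch receptors after the ligand binds. PSEN2 was at 106, 134, 250.0 and 299 CPM in the BT intima and at 36.3, 56.8, 101 and 90.7 CPM in the BT media of rabbits 3, 4, 5 and 6, a log2 fold change of 1.46 (SE 0.24, edgeR q = 0.0264). ADAM10 was at 97.1, 133, 96.0 and 63.1 CPM in the intima and at 42.7, 47.9, 21.8 and 16.9 CPM in the media, a log2 fold change of 1.68 (SE 0.31, edgeR q = 0.0345). Intima exceeded media in all 4 rabbits for both genes, and the 3 calls were lost without rabbit 4, 5 or 6. At the BA no gene of either list was called between layers, and none of either list was called between locations or in an interaction. Medians of the lists between layers were -0.54 (Wnt) and 0.29 (Notch) for the BA, then -0.19 (Wnt) and 0.03 (Notch) for the BT, beside 0.05 and 0.08 over all genes.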

How the data were processed

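The authors made cDNA with the SMART-Seq v4 kit and libraries with Nextera, read them from 1 end, aligned the reads to oryCun2 with STAR, and counted uniquely mapped reads on Ensembl exons with featureCounts 1.6.2. The deposited table holds unnormalized counts, with 1 entry per gene symbol. The count of reads was set to use strand, whereas the kit does not mark it, so reads on the opposite strand were not counted, which lowers the depth behind scarce genes, and antisense partners cannot be told apart. The entry without a symbol (13.8% to 18.7% of counts) was left out of totals and tests. Dates had replaced 22 symbols.

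Members were matched by symbol, and members and lists were chosen with earlier results of these data known. Named with values were members past q = 0.05, the 3 highest by mean CPM in each role, NDP, RSPO3, and list genes past the threshold. Tests used edgeR 4.0.16 in R 4.3.3 (quasi-likelihood, legacy form, TMM, genes with a mean above 1 CPM in at least 1 group, Benjamini-Hochberg q-value below 0.05). Each flow fit held 4 libraries, and each other fit held 8 with rabbit as a block, since both layers and locations came from the same animals. Deviations from group means correlated at -0.0292 to 0.383 within rabbits. SEs are the log2 fold change divided by the root of F. Figures used matplotlib 3.10.9. The fits were tested on simulated data. Alternatives were RLE scaling, library size alone, all genes with a count, DESeq2 1.42.0, 1 fit over 16 libraries, no block, and leaving out each rabbit. A count of 0 allows up to 3 counts (0.169 to 1.58 CPM), for counting error only. Gene lengths and coordinates were not used.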

Additional observations from a re-analysis of the deposited data

How the results depend on the processing

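With 2 rabbits per flow group, leaving one out sets 1 library against 2, which assumes that the lone library varies like the others. Calls between layers were the most sensitive. At the BA, 1 Wnt gene was called, 4 with DESeq2, 0 with no replicate block and 0 to 1 without a rabbit. No Notch gene was called there, but 1 with library size alone (DLL4), 1 with all genes with a count, 3 with DESeq2 and 0 to 1 without a rabbit. At the BT, the 2 Wnt genes became 5 with DESeq2, 0 with no replicate block and 0 to 2 without a rabbit, and the 1 Notch gene became 5, 0 and 0 to 1. No block value changed a call for location or an interaction.

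With ligation, where no member was called, all genes with a count gave 1 Wnt and 1 Notch gene in the BA intima, BA media and BT media, and 0 in the BT intima. DESeq2 gave 1 Wnt and 1 Notch gene in the same 3 tissues and 2 Wnt genes in the BT intima. Without a rabbit, 0 to 1 Wnt and 0 to 2 Notch genes were called in the BA intima, and 0 to 2 and 0 to 1 in the BT media. Between locations, all genes with a count gave 1 Wnt gene in the media (DKK2). Interactions gave 1 member for layer at the BT with DESeq2, 2 for location in the media with all genes with a count, and without a rabbit 0 to 1 in the intima and 0 to 2 in the media. The cause of these differences was not tested.

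Of 547 values over 61 single-gene results, 465 kept direction and side of the threshold, 30 lost it, 48 gained it and 4 reversed. The reversed ones, with their log2 range over the rabbits left out, were DLL4 (-3.47 to 0.15) and DKK2 (-0.74 to 0.24) in the BA intima and DKK2 in the BT intima (-0.53 to 0.63) with ligation, each reversed without rabbit 4, and NDP in the layer by flow interaction at the BA (-7.19 to 1.40, from -6.17), reversed without rabbit 5. TNKS2 also lost its call in 1 fit over 16 libraries (edgeR q = 0.135). Library size alone moved the median of all genes between layers from 0.05 to 0.24 at the BA and from 0.08 to 0.32 at the BT. Medial libraries, down to 2154863 counts, limit what can be said of scarce ligands there.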
